A study of Homo sapiens with 6 samples.

Results

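The heterogeneous nuclear ribonucleoprotein (hnRNP) genes described here were HNRNPC, HNRNPF, HNRNPH1, HNRNPH2, HNRNPH3, HNRNPK, HNRNPL, HNRNPM, HNRNPR and HNRNPU. They were taken by name from the hnRNP genes outside the A/B and D subfamilies. The rule used no measured value, but it was set with earlier results of these data known. These genes were 10 of the 60708 counted in each library. The data came from Ago-RIP-seq in MDA-MB-231 cells, an established human line of triple-negative breast cancer. AGO2 was immunoprecipitated together with its bound RNA (AGO2-IP), and the RNA that stayed unbound was sequenced as the flow-through. Cells received 25 nM of a miR-99b-5p mimic or of a scrambled control and were harvested 18 h after transfection. The mimic group had 2 AGO2-IP and 2 flow-through libraries, described in the study as biological replicates, and the control group had 1 library of each fraction, with the fraction as labelled. The study's own sample list names both control libraries as control replicates and gives them no fraction, so every control ratio of AGO2-IP over flow-through depends on the label being right. All of them came from this single cell line.

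The hnRNP proteins bind nascent transcripts in the nucleus, package them and steer splicing, polyadenylation, export and stability, and several of them also shuttle to the cytoplasm. Many of their mRNAs are themselves regulated by the proteins they encode. AGO2 is guided to mRNAs by a loaded microRNA, chiefly through pairing of the microRNA seed (bases 2 to 8) with sites that lie mostly in 3′ untranslated regions.

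The sequence of mature miR-99b-5p is given with its seed in capitals, to show what a transcript must hold to pair with it. It is 22 nucleotides long and is encoded on the plus strand at chr19:51692618-51692639 (RefSeq, GRCh38.p14).
hsa-miR-99b-5p: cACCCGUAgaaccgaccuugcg
A transcript that pairs with the seed holds ACGGGT (the 6mer), extended to TACGGGT (the 7mer-m8), ACGGGTA or TACGGGTA in longer matches. The sense strand of the canonical transcript of each gene (GENCODE 44, GRCh38) was searched for these letters, and 2 of the 10 genes, HNRNPF and HNRNPL, held the 6mer. Coordinates throughout are those of GRCh38. Of all 20046 protein-coding genes, 14.9% held it in the canonical transcript and 5.62% held it in the 3′ untranslated region. The 4 matches are shown in 30-base windows of transcript sequence with the matching letters in capitals.
HNRNPF coding sequence, chr10:43386886-43386915, minus strand, exon 4 of 4: gatggaagagtgACGGGTgaagcagatgtt
HNRNPF 3′ untranslated region, chr10:43385969-43385998, minus strand, exon 4 of 4: aaagatagcaaaACGGGTggttgaagataa
HNRNPL coding sequence, first match, chr19:38838543-38838572, minus strand, exon 10 of 13: ctggtcagtcaTACGGGTtggaagacgggt
HNRNPL coding sequence, second match, chr19:38838531-38838560, minus strand, exon 10 of 13: acgggttggaagACGGGTcttgcagttaca
The first match of HNRNPL was a 7mer-m8 and the other 3 were 6mers, so that only HNRNPF held a match in a 3′ untranslated region. Among all annotated transcripts of these genes, the 6mer was found in 6 of the 8 of HNRNPF and 8 of the 15 of HNRNPL. It was also found in 10 of the 32 of HNRNPC, 2 of the 49 of HNRNPH1, 1 of the 34 of HNRNPK and 1 of the 16 of HNRNPM. No transcript of HNRNPH2, HNRNPH3, HNRNPR or HNRNPU held it. A match describes the letters of the window and is not a measured binding site. Whether genes with a match differed in enrichment from those without was not tested.

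The counts on genes ran from 38022779 to 48544756 in the mimic libraries and came to 7772149 and 8076375 in the control flow-through and AGO2-IP. Read pairs counted on no gene made up 21.4% to 47.2% of the pairs in the mimic libraries and 92.3% to 95.03% in the control libraries, and mitochondrially encoded genes made up 43.4% of the control flow-through counts, 3.48% of those of the control AGO2-IP and no more than 0.125% in the mimic libraries. Transfection and library composition therefore cannot be told apart in any comparison of mimic with control. The mesenchymal markers VIM, CD44, CAV1, AXL and FN1 lay between 50.0 and 2730 CPM (counts per 1000000 gene counts) in all libraries, while ESR1, PGR and CDH1 were at or below 3.96 CPM. EPCAM, GATA3 and ERBB2, also listed as low in these cells, lay at 2.80 to 11.8, 8.26 to 24.8 and 37.7 to 172 CPM. AGO2 mRNA was at 122 to 597 CPM. The counts of the hnRNP genes ran from 111 (HNRNPH2, control flow-through) to 103917 (HNRNPH1, second mimic AGO2-IP), and the widest 95% Wilson interval of a level reached 18.7% to either side, which covers counting error only.

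The mRNAs of all 10 genes were higher in both mimic AGO2-IP libraries than in both mimic flow-through libraries, as were those of 28.1% of the 13078 genes tested. Together the 10 genes took 1.13% and 1.26% of the gene counts in the mimic AGO2-IP, against 0.290% and 0.143% in the matching flow-through libraries. Control cells showed a share of 0.226% in the AGO2-IP and of 0.108% in the flow-through. The mimic AGO2-IP libraries were the highest of all 6, and the control AGO2-IP lay between the mimic flow-through libraries. Between mimic and control cells, these bulk libraries cannot tell a change in the number of expressing cells from a change in the RNA per cell.

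**Figure D1:**
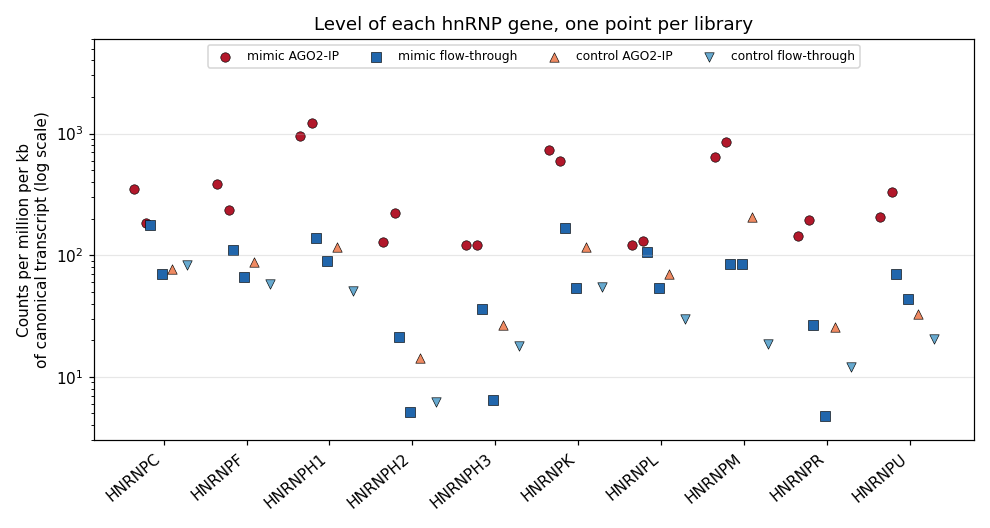
Level of each gene in each library, in CPM per kilobase of canonical transcript on a log axis, with one point per library. For every gene both mimic AGO2-IP libraries (red circles) lay above both mimic flow-through libraries (blue squares), closely for HNRNPC and HNRNPL.

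Compared per transcript length, as CPM per kilobase of the canonical transcript, HNRNPH1 had the highest level in the mimic AGO2-IP, at 1083 ± 194 (SD, n = 2). HNRNPM followed at 745 ± 148 and HNRNPK at 666 ± 103, and the ranges of these neighbours overlapped each other but not that of HNRNPH1. HNRNPF, HNRNPU and HNRNPC came next, at 311 ± 109, 268 ± 85.4 and 268 ± 117, with overlapping ranges. HNRNPH2 (174 ± 66.1) and HNRNPR (170 ± 35.4) overlapped each other and HNRNPC, and HNRNPH2 also overlapped HNRNPU. HNRNPL (126 ± 7.92) and HNRNPH3 (122 ± 0.0892) were lowest, with HNRNPL overlapping HNRNPH2. In the mimic flow-through the order was different, with HNRNPC highest at 124 ± 76.6 CPM per kilobase, then HNRNPH1 at 114 ± 35.3 and HNRNPK at 110 ± 79.9. HNRNPF, HNRNPM, HNRNPL and HNRNPU lay between 88.4 and 56.9, and HNRNPH3, HNRNPR and HNRNPH2 were lowest at 21.2 ± 20.9, 15.6 ± 15.4 and 13.3 ± 11.5. Among the first 4 in the flow-through, every range overlapped those of the others. In the control AGO2-IP, HNRNPM had the highest level at 207 CPM per kilobase, while in the control flow-through HNRNPC was highest at 83.0 and HNRNPM was seventh at 18.5. HNRNPH2 had the lowest level in both control libraries, at 14.3 (AGO2-IP) and 6.22 (flow-through).

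To ask which of these mRNAs were enriched in the AGO2-IP of mimic-transfected cells, edgeR's quasi-likelihood test was applied to the 4 mimic libraries across the 13078 genes whose counts summed to 200 or more. A call required a log2 fold change of 1 or more in size and a Benjamini-Hochberg adjusted p no higher than 0.05. HNRNPH1 alone was called enriched, where 0.245% of all genes were. None of the 10 was called depleted, against 0.413% of all genes. The AGO2-IP exceeded the flow-through by 1 or more on the log2 scale for 9 of the 10 genes, against 20% of all genes tested, and the median log2 fold change of the 10 was 2.66 where the median of all genes was -0.11. All 10 genes had both AGO2-IP libraries above both flow-through libraries, as did 28.1% of all genes. The adjusted p-values of HNRNPH2, HNRNPM, HNRNPR, HNRNPK, HNRNPU and HNRNPH3 from the same edgeR test lay above the threshold, between 0.0501 and 0.0880. At an unadjusted p under 0.05, 8 of the 10 genes had a log2 fold change of 1 or more, all but HNRNPC and HNRNPL, where 10.6% of all genes did.

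The calls depended on the fit and on single libraries. The replicate numbers pair the AGO2-IP and flow-through libraries, and with the replicate as a block edgeR called 7 of the 10 genes enriched, all but HNRNPC, HNRNPF and HNRNPL, where 4.6% of all genes were called. The block lowered the residual degrees of freedom from 2 to 1 while edgeR's prior degrees of freedom went from 9.2 to infinity, and the F statistic of HNRNPH1 went from 27.99 to 23.7. PyDESeq2 called 8 of the 10 genes, all but HNRNPC and HNRNPL, where it called 6.43% of all genes. Without the first mimic flow-through library edgeR called 9 genes, all but HNRNPL, where 20.2% of all genes were called, and without the second it called 4 (HNRNPH1, HNRNPH2, HNRNPM and HNRNPR), where 1.9% were. Without the first or the second AGO2-IP library edgeR called 0 of the 10, where 0.103% and 0.0157% of all genes were called, and 7 and 6 of the 10 were higher at an unadjusted p under 0.05, where 3.59% and 2.98% of all genes were. With 1 library left out, the lone library of that fraction is assumed to vary like those of the other.

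**Figure D2:**
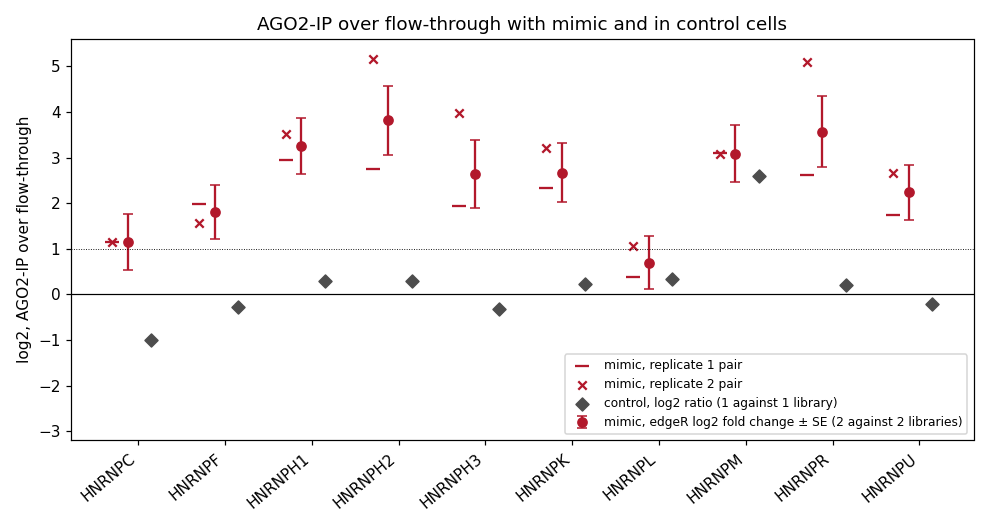
Log2 difference between AGO2-IP and flow-through for each gene, with the edgeR log2 fold change ± SE from the 4 mimic libraries (red circles), the differences within each mimic replicate (dashes and crosses) and the ratio of the single control libraries (grey diamonds). HNRNPM was the only gene with a control ratio above 1 (dotted line), and HNRNPL the only one with a mimic fold change below it.

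HNRNPC (ENSG00000092199.18, chr14:21209136-21269494, minus strand) encodes a nuclear protein that binds uridine tracts of nascent transcripts. Its level was 1109 and 585 CPM in the AGO2-IP and 565 and 222 CPM in the flow-through with the mimic, and 244 and 263 CPM in the same fractions of control cells. The second mimic AGO2-IP library lay only just above the first flow-through library, and the single-library differences ran from 0.29 to 2.01 on the log2 scale. The AGO2-IP exceeded the flow-through by 1.15 on the log2 scale (SE 0.622, adjusted p = 0.279 by edgeR), which did not pass the test. The control log2 ratio was -0.997 after TMM normalization and -0.10 by library size alone (1972 against 2041 counts), the lowest of the 10 genes by either scaling.

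HNRNPF, HNRNPH1, HNRNPH2 and HNRNPH3 encode closely related proteins that bind G-rich tracts and act in alternative splicing and polyadenylation. With the mimic, HNRNPH1 (ENSG00000169045.17, chr5:179614178-179634784, minus strand) reached 2119 and 2733 CPM in the AGO2-IP (99054 and 103917 counts) against 312 and 199.8 CPM in the flow-through (14646 and 9698 counts). In control cells the AGO2-IP held 262 CPM and the flow-through 115, so that the 2 mimic AGO2-IP libraries stood apart from the other 4. Its log2 fold change was 3.25 (SE 0.614, adjusted p = 0.0490 by edgeR). With DESeq2's size factors, library size alone, protein-coding genes only or either strand column the adjusted p of HNRNPH1 by edgeR lay just above 0.05, between 0.0584 and 0.0694.

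HNRNPH2 (ENSG00000126945.9, chrX:101408222-101414133, plus strand), the paralogue of HNRNPH1 on the X chromosome, had the largest log2 fold change of the 10 genes. With the mimic it was at 293 and 508 CPM in the AGO2-IP against 49.3 and 11.9 CPM in the flow-through, and in control cells at 32.8 against 14.3 CPM. The mimic AGO2-IP libraries lay above the other 4, both control libraries lay within the range of the mimic flow-through, and the mimic flow-through libraries differed from each other by 1.55 on the log2 scale. At a log2 fold change of 3.82 (SE 0.757, adjusted p = 0.0501 by edgeR), the 14.1-fold difference missed the threshold narrowly. Leaving out 1 library moved the log2 fold change between 3.21 and 4.75 and the adjusted p by edgeR between 0.000910 and 0.420, the lowest without the first flow-through and the highest without the second AGO2-IP library.

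HNRNPH3 (ENSG00000096746.18, chr10:68331174-68343193, plus strand), a shorter relative of the H proteins, had nearly equal levels of 287 CPM in both mimic AGO2-IP libraries and very unequal levels of 84.7 and 15.2 CPM in their flow-through. The control AGO2-IP held 62.9 CPM and the control flow-through 42.1, both within the range of the mimic flow-through libraries. Its log2 fold change was 2.65 (SE 0.743, adjusted p = 0.0880 by edgeR), and leaving out 1 library moved it between 1.94 and 3.91. HNRNPF (ENSG00000169813.17, chr10:43385617-43409186, minus strand), the gene with a seed match in its 3′ untranslated region, was at 995 and 601 CPM in the AGO2-IP against 284 and 170.3 CPM in the flow-through with the mimic, and at 226 against 148 CPM in control cells. Every mimic AGO2-IP value lay above the other 4. Its log2 fold change of 1.81 (SE 0.598, adjusted p = 0.118 by edgeR) was the third lowest of the 10.

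HNRNPK (ENSG00000165119.21, chr9:83968083-83980631, minus strand) encodes a KH-domain protein that binds C-rich RNA and single-stranded DNA. Its AGO2-IP level with the mimic was 2132 and 1713 CPM, against 481 and 155 CPM in the flow-through. Control cells had 341 CPM in the AGO2-IP and 157 CPM in the flow-through. The control AGO2-IP lay within the range of the mimic flow-through libraries, well below both mimic AGO2-IP libraries. HNRNPK had a fold change of 2.67 on the log2 scale (SE 0.646, adjusted p = 0.0660 by edgeR).

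HNRNPL (ENSG00000104824.18, chr19:38836370-38852347, minus strand), whose protein binds CA repeats and regulates alternative splicing, had the smallest difference between the fractions. It was at 259 and 283 CPM in the AGO2-IP against 226 and 114 CPM in the flow-through with the mimic, and at 151 against 64.2 CPM in control cells. The groups did not overlap with the mimic, but the log2 fold change was 0.70 (SE 0.581, adjusted p = 0.478 by edgeR) and did not pass the test. HNRNPL is the gene with 2 seed matches in its coding sequence, and it passed the test under none of the 19 alternatives.

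HNRNPM (ENSG00000099783.12, chr19:8444767-8489114, plus strand) encodes a splicing regulator known for its part in alternative splicing of CD44 in breast cancer cells. The mimic AGO2-IP libraries held 1585 and 2105 CPM, against 208 and 210.0 CPM in the flow-through, where the replicates hardly differed. In the control pair it had 514 CPM (4149 counts) in the AGO2-IP and 45.9 CPM (357 counts) in the flow-through. Both control and mimic cells thus had the higher CPM in the AGO2-IP, as for each of the 10 genes but HNRNPC. The mimic log2 fold change was 3.09 (SE 0.623, adjusted p = 0.0529 by edgeR), beside a control log2 ratio of 2.59, the highest of the 10.

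HNRNPR (ENSG00000125944.21, chr1:23303771-23344336, minus strand), a paralogue of SYNCRIP, was at 1121 and 1509 CPM in the AGO2-IP against 205 and 36.8 CPM in the flow-through with the mimic. Control cells had 199 CPM in the AGO2-IP and 92.9 CPM in the flow-through, neither of them near the mimic AGO2-IP. The mimic flow-through libraries differed by 1.98 on the log2 scale, as did those of HNRNPH3, the widest such differences among the 10 genes. Its log2 fold change of 3.57 (SE 0.771, adjusted p = 0.0557 by edgeR) ran from 2.87 to 4.84 when single libraries were left out.

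HNRNPU (ENSG00000153187.20, chr1:244840638-244864560, minus strand) encodes scaffold attachment factor A, which ties RNA to chromatin. With the mimic it was at 1425 and 2254 CPM in the AGO2-IP against 483 and 299 CPM in the flow-through, and in control cells at 227 against 141 CPM. Both control libraries lay below every mimic library, and the mimic groups did not overlap. The mimic AGO2-IP was higher by 2.24 on the log2 scale (SE 0.604, adjusted p = 0.0820 by edgeR).

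In the control pair, with 1 library per fraction and no test, log2 ratios of AGO2-IP over flow-through after TMM normalization were small for most of these genes. HNRNPM, at 2.59, was the only 1 of the 10 with a ratio of at least 1, which 15.9% of 8245 genes reached. HNRNPL, HNRNPH2, HNRNPH1, HNRNPK and HNRNPR lay between 0.21 and 0.34, while HNRNPU (-0.21), HNRNPF (-0.28), HNRNPH3 (-0.31) and HNRNPC (-0.997) lay below 0. The median of the 10 was 0.22, beside 0.01 for all genes. With the mimic higher in the AGO2-IP and the control lower, HNRNPC, HNRNPF, HNRNPH3 and HNRNPU ran in opposite directions, 4 of the 10 where 8% of 8225 genes did. The signs rest in part on the scaling. By library size alone the median of all genes rose to 0.89, the ratios of HNRNPU, HNRNPF and HNRNPH3 became 0.68, 0.61 and 0.58, that of HNRNPC became -0.10, and 6 of the 10 genes reached 1 where 46.1% of all genes did. Relative to the median of all genes, that of the 10 genes stood 0.21 higher under both scalings.

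The difference between the mimic and control differences was tested in a fit of all 6 libraries, which lends the spread of the mimic replicates to the single control libraries. It ran from 0.15 (HNRNPL) and 0.29 (HNRNPM) to 3.16 (HNRNPR) and 3.30 (HNRNPH2) on the log2 scale, and was above 0 for all 10 genes. The adjusted p by edgeR was 0.9999 for each of them, and edgeR called 0 of 13319 genes in either direction. At an unadjusted p-value under 0.05, HNRNPH1, HNRNPH2, HNRNPH3 and HNRNPR passed with a difference of at least 1, as did 0.45% of all genes. The enrichment with the mimic was therefore not shown to differ from that in control cells for any of the 10 genes.

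Between the AGO2-IP libraries themselves, the mimic exceeded the control by 1 or more on the log2 scale for 9 of the 10 genes, against 17.3% of 11467 genes. The ratio was highest for HNRNPH2 at 3.69 and HNRNPH1 at 3.33, followed by HNRNPU (3.12), HNRNPR (2.84), HNRNPK (2.62), HNRNPH3 (2.32), HNRNPM (1.96), HNRNPF (1.91) and HNRNPC (1.86). HNRNPL was lowest at 0.97. These ratios share their libraries with the comparisons of the fractions. Both mimic libraries lay above the control library for all 10 genes, as for 41.1% of all genes, and the median of the 10 was 2.47 beside 0.02 for all genes. The single-library ratios ran from 0.88 and 1.07 for HNRNPL to 3.26 and 4.11 for HNRNPH2.

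In the flow-through the corresponding ratios were smaller for all 10 genes. Only for HNRNPM did both mimic libraries exceed the control by more than 1. The log2 ratio of mimic over control ran from -0.70 for HNRNPH3 and -0.57 for HNRNPR to 0.96 for HNRNPU and 1.72 for HNRNPM, with a median of 0.31 beside 0.05 for all genes. HNRNPM was the only 1 of the 10 with a ratio of at least 1, which 10% of 12254 genes reached. By library size alone HNRNPH1 (1.12), HNRNPL (1.32), HNRNPU (1.43) and HNRNPM (2.19) reached 1, where 26% of all genes did, and the median of the 10 was 0.78 beside 0.52 for all genes. With the mitochondrial genes left out of the library size, HNRNPM alone reached 1 (1.37), where 4.4% of all genes did, and the median of the 10 was -0.042 beside -0.30. The 10 genes stood 0.26 above the median of all genes under each of these scalings. This had to be so, since a change of scaling shifts all genes nearly alike. For HNRNPC, HNRNPF, HNRNPH2, HNRNPH3, HNRNPK and HNRNPR the 2 mimic flow-through libraries lay on either side of the control library. With the 6-library fit, edgeR's adjusted p-values of the 10 genes lay between 0.531 and 0.756 for the AGO2-IP and at 1 for the flow-through, and 0 genes were called higher with the mimic in either fraction. With an unadjusted p under 0.05 and a difference of 1 or more, 9 of the 10 genes passed in the AGO2-IP, all but HNRNPL, where 2.95% of all genes did. In the flow-through HNRNPM alone did, where 0.811% of all genes did.

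**Figure D3:**
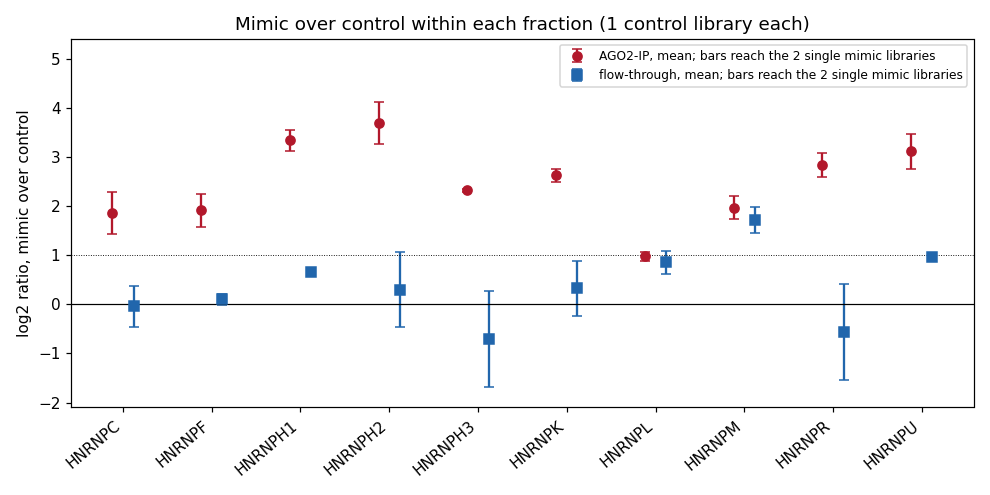
Log2 ratio of mimic over control for each gene in the AGO2-IP (red) and in the flow-through (blue), with bars that reach the 2 single mimic libraries and 1 control library per fraction. The AGO2-IP ratios lay between 0.97 and 3.69, and the flow-through ratios between -0.70 and 1.72.

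Transcript GC content moved with these values. Genes are not independent replicates, and over the 11747 protein-coding genes tested the log2 fold change of mimic AGO2-IP over flow-through had a Spearman's rho of -0.545 with the GC content of the canonical transcript, and the log2 difference between the first and the second flow-through library one of -0.755. The corresponding difference between the AGO2-IP libraries had a rho of -0.01. Most of the hnRNP transcripts are poor in GC, from 35.1% for HNRNPR to 54.3% for HNRNPL, with a median of 42.1% where all protein-coding genes had 49.2%. HNRNPM (53.1%) and HNRNPL were the exceptions, with log2 fold changes of 3.09 and 0.70.

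After removal of each library's GC trend, edgeR called HNRNPH1, HNRNPH2, HNRNPH3, HNRNPK, HNRNPM and HNRNPR enriched, 6 of the 10 where 3.58% of all genes were called. The log2 fold changes then ran from 0.43 for HNRNPC to 3.39 for HNRNPM, with a median of 2.10. That of HNRNPM went from 3.09 to 3.39 and that of HNRNPL from 0.70 to 1.01, whereas those of the other 8 became smaller. With the replicate block as well, 8 were called, where 13.9% of all genes were. Mimic over control AGO2-IP, the median log2 ratio went from 2.47 to 1.93, and HNRNPL at 1.41 then joined the other 9 above 1, where 11.2% of all genes were.

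**Figure D4:**
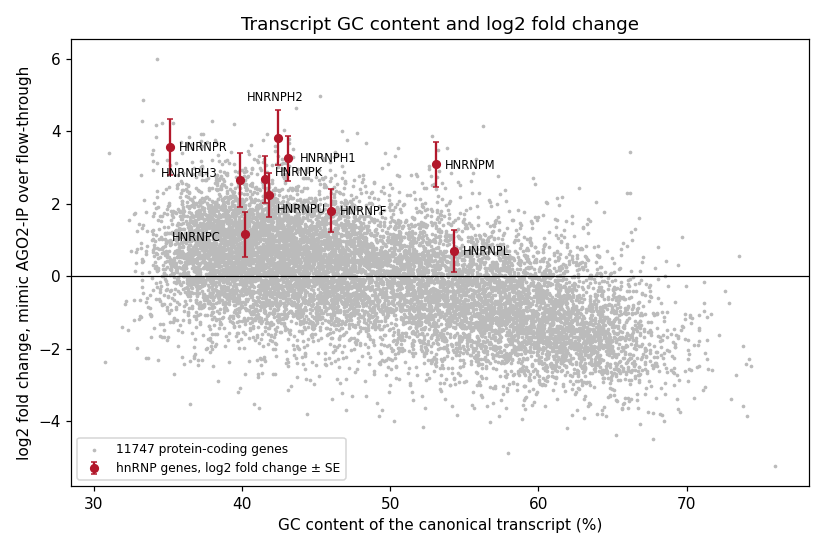
GC content of the canonical transcript in percent against the log2 fold change of mimic AGO2-IP over flow-through, for 11747 protein-coding genes (grey) and the 10 hnRNP genes (red, ± SE). Fold changes were lower at higher GC content across genes, and HNRNPM at 53.1% GC stood at a log2 fold change of 3.09.

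Other hnRNP genes and the SR genes, which encode serine- and arginine-rich splicing factors, were set beside these 10. Of the 18 other hnRNP genes, among them those of the A/B and D subfamilies, 5 were called enriched by edgeR and 0 depleted. Of all genes, 0.245% and 0.413% were. At an unadjusted p under 0.05, 11 of them were higher and 4 lower, where 10.6% and 13.1% of all genes were. Log2 fold changes reached 1 for 12, where 20% of all genes did, with a median of 1.87. Those of some others fell below -1. HNRNPA1 was among the highest, at 4.04 (adjusted p = 0.0349 by edgeR). The lowest were PTBP1 at -2.18 and PCBP1 at -2.12, which encode pyrimidine-tract and poly(C) binding proteins (edgeR, adjusted p = 0.103 and 0.139). Of the 11 SR genes edgeR called 0 in either direction, and 6 were higher at an unadjusted p under 0.05 (10.6% of all genes). A log2 fold change of 1 was reached by 7 of them and by 20% of all genes, and their median was 1.76. SRSF5 (2.83) and SRSF4 (2.80) were highest, and SRSF11 (-0.35) and SRSF6 (0.64) lowest. With the replicate block edgeR called 7 of the other hnRNP genes and 6 of the SR genes enriched, where 4.6% of all genes were, and 1 of the other hnRNP genes depleted, where 5.08% were. PyDESeq2 called 10 and 6 of them enriched (6.43% of all genes) and 2 of the other hnRNP genes depleted (8.24%). The log2 ratio of mimic over control AGO2-IP had a median of 1.46 for the other hnRNP genes and of 1.27 for the SR genes.

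**Figure D5:**
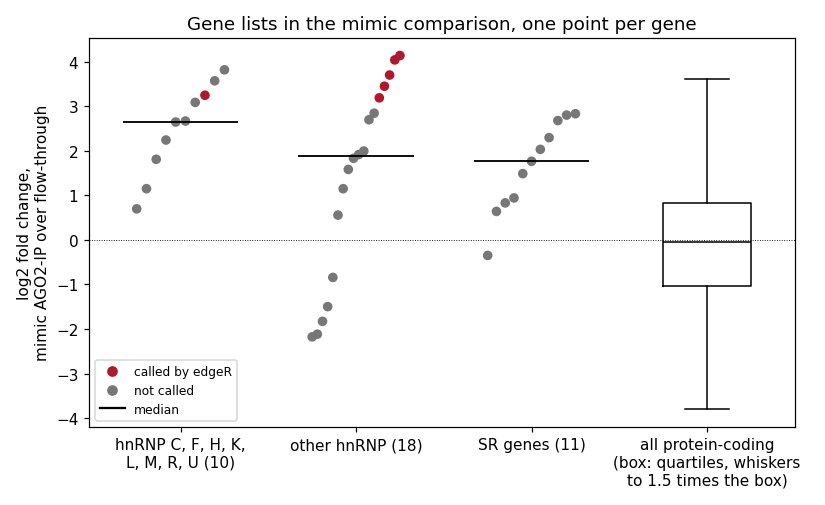
Log2 fold change of mimic AGO2-IP over flow-through for the 10 hnRNP genes, 18 other hnRNP genes and 11 SR genes, with one point per gene, medians as lines and genes called by edgeR in red, beside the quartiles of all protein-coding genes. The medians were 2.66, 1.87 and 1.76, and only the other hnRNP genes included values below -1.

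Genes with the most similar pattern were looked for among 11849 protein-coding genes outside these lists, as those with the smallest root mean square distance of centred log2 CPM from the mean profile of the 10 genes over the 6 libraries. They were COIL (0.127), SERBP1 (0.182), SRP54 (0.190), NOLC1 (0.211) and XRCC5 (0.214), where the median distance of the compared genes was 1.41. Their log2 fold changes with the mimic were 2.10 to 2.93, and none was called by edgeR (adjusted p from 0.0575 to 0.102). Among the 10 genes HNRNPK lay nearest to the mean profile, at 0.173, and HNRNPM (0.841), HNRNPL (0.800) and HNRNPC (0.775) lay farthest from it. Of the 11849 compared genes, 1643 lay within the range of the 10 genes, whose own values make up the mean profile.

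The counts of several of these genes leave out read pairs shared with other annotated genes. HNRNPL shares 26.2% of its canonical transcript with the exons of a gene on the same strand, and HNRNPH2 shares 15.8% with the read-through gene RPL36A-HNRNPH2, which had 0 counts in all 6 libraries. On the opposite strand, HNRNPU shares 11.1%, HNRNPM 5.53%, HNRNPH3 4.88% and HNRNPK 1.52% with other exons, the last with HNRNPK-AS1, which had at most 11 counts in a library. Counting by strand raised a count by at most 1.42 times for HNRNPH3, 1.19 times for HNRNPK and HNRNPU and 1.12 times for HNRNPM. The 26 annotated pseudogene copies of the 10 genes held few counts, at most 2.61% of the parent's count in a library (HNRNPL, control flow-through), and adding them to the parents left the call of HNRNPH1 as it was.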

How the data were processed

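Per the submitters' processing notes and the study's methods, the authors used FastQC 0.11.9 for quality control of the paired-end reads, cutadapt 3.5 for trimming and STAR 2.7.11b for alignment to GRCh38 and for counting read pairs on genes. The deposited values are these raw counts, without normalization. The unstranded column was used, and rows without a gene entered neither library sizes nor tests (21.4% to 95.03% of read pairs). Only pairs with a single alignment on a single gene are counted, which lowers the counts of genes with copies or overlapping neighbours. The Ensembl release is not given in the sources used here; 60507 of 60708 identifiers matched GENCODE 44 and 201 did not.

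Differential tests were run in edgeR 4.0.16 (R 4.3.3) with glmQLFit and glmQLFTest after TMM normalization, on genes with 200 or more counts in sum, with Benjamini-Hochberg adjustment over all genes tested. Standard errors are the log2 fold change over the square root of F. Comparisons with the control rest on 1 library per fraction and are given as log2 ratios of CPM after TMM (prior count 2). The replicate numbers were taken to pair the mimic fractions, as the labels give each replicate both. Same-numbered libraries deviated together (Pearson's r 0.324, Spearman's rho 0.236 across 13078 genes). Swapping the numbers within a fraction would only turn the sign, so these values cannot show that the pairing is right. The biological coefficient of variation was 0.527. Alternatives were DESeq2 1.42.0 size factors, library size alone, PyDESeq2 0.5.4, other filters, strand columns, the replicate block, removal of a lowess trend on GC content (span 0.2), thinning to 7772149 counts and leaving out each library. Library size without mitochondrially encoded genes was chosen after seeing the data. The scripts were tested on simulated data with less spread between libraries than measured here, which does not show the power of the tests on these data. Wilson intervals cover counting error only, since the reads carry no molecular identifiers.

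The 10 genes, the comparison lists, the rule for examples (the 2 highest and 2 lowest log2 fold changes of a list) and the tests were chosen with earlier results of these data known. Some genes of these lists are not reported here by name.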

Additional observations from a re-analysis of the deposited data

Results flagged for a closer look

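Mimic and control ran in opposite directions for 4 of the 10 genes, with every mimic AGO2-IP above every mimic flow-through library and the reverse order in the control pair. HNRNPC had a mimic log2 fold change of 1.15 and a control log2 ratio of -0.997. HNRNPF had 1.81 and -0.28, HNRNPH3 had 2.65 and -0.31, and HNRNPU had 2.24 and -0.21. This held for 8% of the 8225 genes measured in the mimic and the control comparison. By library size alone the control ratios of HNRNPF, HNRNPH3 and HNRNPU turned to 0.61, 0.58 and 0.68 and that of HNRNPC was -0.10. With DESeq2 size factors the first 3 were -0.29, -0.32 and -0.22, and by library size without mitochondrial genes (chosen after seeing the data) -0.16, -0.19 and -0.086. Without a count filter those of HNRNPF and HNRNPU were 0.012 and 0.085, and with all 6 libraries in one fit that of HNRNPU was 0.0096. The difference between mimic and control did not pass the test in the fit of all 6 libraries (adjusted p = 0.9999 by edgeR for each of the 4).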

How the results depend on the processing

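The log2 fold change of mimic AGO2-IP over flow-through stayed above 0 for all 10 genes in all 19 alternatives (190 values, 0.38 to 4.84). The number of genes called enriched, 1 as reported, was 0 with DESeq2 size factors, library size alone, library size without mitochondrial genes (chosen after seeing the data), protein-coding genes only, or either strand column, settings in which edgeR called 0% to 0.0994% of all genes and 8 of the 10 were higher at an unadjusted p under 0.05 (8.72% to 10.7% of all genes). It was 1 with pseudogene counts added. It was 2 with all 6 libraries in one fit (0.293% of all genes), 4 with libraries thinned to the shallowest (1.35%), 6 with the GC trend removed, 6 with 200 counts in every library (2.44%), 7 without a count filter (0.96%) and 8 with PyDESeq2. Leaving out 1 mimic library gave 0 to 9. With the replicate block, which follows the pairing of the mimic fractions, it was 7, and with the block and the GC trend removed 8. None was called depleted in any of these.

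The median control log2 ratio (0.22) was 0.43 with all 6 libraries, 1.11 by library size alone, 0.34 by library size without mitochondrial genes and 0.51 without a filter. HNRNPH2 fell under the minimum in the control pair with the counts of strand column 4 and with 200 counts in every library, so that these gave no median of all 10. The median mimic over control AGO2-IP (2.47) was 1.93 with the GC trend removed, 2.34 by library size alone, 2.29 without mitochondrial genes and 3.07 without a filter, and 2.40 to 2.41 with 1 mimic library left out. In the flow-through (0.31) it was -0.22 without the first mimic library and 0.64 without the second. The cause of these shifts was not tested. The number of libraries limits these comparisons, and with 1 library per fraction no spread was measured in control cells.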
